A study of Mus musculus with 6 samples.

Results

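The bone morphogenetic protein (BMP) pathway was described here through 10 mouse genes, taken as every non-control probe whose name in the array files was Bmp2, Bmp4, Bmp6, Bmp7, Bmpr1a, Bmpr2, Grem1, Id1, Id2 or Id3. These genes had 17 of the 41174 non-control probes of the array, and 9 of the 10 were among the 14907 genes bright enough to test. The cells were labelled as satellite cells, the stem cells of skeletal muscle, in proliferation, from female mice. One group of 3 samples came from mice with the genotype Magic-F1+/+, and the other group of 3 samples was control cells whose titles carry the word MLC3F. Magic-F1 is an engineered protein derived from hepatocyte growth factor that activates the receptor MET, and the series presents these mice as a model of muscle hypertrophy. The comparison asks which transcripts differed between the cells of these mice and control cells. The promoter of the transgene, the strain and age of the mice, any pooling of animals, the isolation of the cells and the meaning of MLC3F are not given in these sources. The series speaks of biological triplicates but names no animal or culture for any of them. The 3 samples of a group carry the same source name, which ends in rep1, and the replicate numbers used here are those in the titles. The spread that the p-values rest on is therefore that between the 3 samples of a group, and it may be technical.

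BMPs are secreted ligands that bring together type I and type II receptor kinases at the cell surface. The type I receptor then phosphorylates SMAD proteins, which enter the nucleus and switch on targets such as the Id genes. ID proteins lack a DNA-binding region and pair with basic helix-loop-helix (bHLH) factors, MyoD among them, so that these cannot act. In muscle, BMP signals are known for keeping activated satellite cells dividing and for holding back their differentiation, and secreted antagonists such as gremlin and noggin bind the ligands and limit them.

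Each sample was hybridised to 1 single-colour array. The 75th percentile of signal over spots ranged from 341 to 356 on the Magic-F1 arrays and 275 to 292 on the control arrays, between 49.2% and 52.0% of spots were well above background, and 0 were saturated. The number of arrays limits the precision. Values below are log2 signals relative to each array's 75th percentile, and changes are Magic-F1 minus control with limma's standard error (SE) and p-values adjusted by Benjamini-Hochberg over all 21186 tested probes. Signals of different probes are not comparable with each other. The groups stood far apart as a whole, with a correlation between arrays of 0.996 to 0.997 within groups and 0.844 to 0.848 between them.

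The marker genes of satellite cells did not all bear out the label on the Magic-F1 arrays. Control arrays also carried markers of other cell types. Pax7, the defining transcription factor of satellite cells, did not rise well above background on the Magic-F1 arrays and was at least 4.57-fold lower. Pax7 was dim on the control arrays too (mean log2 −3.10). With normexp background correction, which shrinks differences of dim spots, its change was −0.77. Myf5 was not well above background on all 3 arrays of either group. Myod1 (log2 −4.21), the adhesion protein gene Cdh15 (log2 −4.83) and the laminin-binding integrin gene Itga7 (log2 −2.71) were lower as well. In the counts that follow, the share over all tested genes was 88.3% called, 40.6% higher and 47.7% lower. Of 11 tested satellite cell and myoblast markers, 9 were lower and 1 higher, and their summed signal lay at log2 6.16 to 6.19 on the Magic-F1 arrays against 9.29 to 9.38 on the control arrays. Macrophage markers rose (12 of 13 higher and 1 lower, summed signal 10.17 to 10.25 against 8.52 to 8.63), and so did adipocyte markers (9 of 9 higher, 9.57 to 9.65 against 7.20 to 7.23). The median change was log2 4.89 for the macrophage markers, or 4.86 with normexp background, and 3.23 for the adipocyte markers. Neutrophil markers fell (9 of 10 lower and 1 higher, 0.91 to 0.97 against 9.19 to 9.30), as did pericyte and smooth muscle markers (9 of 10 lower and 1 higher, 8.18 to 8.24 against 10.22 to 10.27). Endothelial markers were mostly lower (10 of 12 lower and 2 higher, 4.37 to 4.48 against 4.58 to 4.70). Their summed signal follows the brightest genes, and their median change was log2 −4.07, or −1.33 with normexp background. Tendon and cartilage markers were mostly lower too (6 of 8 lower and 0 higher, 3.05 to 3.11 against 7.25 to 7.40). That sum follows the marker Scx (mean log2 2.94 in Magic-F1 against 7.26 in control). The median change of the list was log2 −1.59, or −0.85 with normexp background. Of the fibro-adipogenic and fibroblast markers, 4 of 11 were higher and 7 lower (9.54 to 9.57 against 10.07 to 10.10). On the Magic-F1 arrays, 5 neutrophil, 5 endothelial, 1 pericyte and 1 satellite cell marker were not well above background on any array. On the control arrays this held for 1 macrophage and 1 adipocyte marker. All 10 tested neutrophil markers and all 8 tested tendon and cartilage markers were well above background on every control array. The marker lists compare the same 2 groups as every result below, and their part in those results was not tested. In RNA of whole samples, fewer cells of a type and less RNA per cell cannot be told apart.

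Within the pathway, the ligand genes Bmp4, Bmp6 and Bmp7, the type I receptor gene Bmpr1a and the target Id3 were lower in Magic-F1 cells. The ligand gene Bmp2, the type II receptor gene Bmpr2, the antagonist gene Grem1 and the target Id2 were higher. Neither the ligands nor the ID targets therefore moved as a block. All 9 tested genes passed limma's test, 4 higher and 5 lower. Over all tested genes 88.3% passed (40.6% higher and 47.7% lower), so a count of 9 of 9 is near the background of this comparison. The same holds for the groups not overlapping, which was the case for all 12 tested probes of these genes and for 89.0% of all tested probes. Of the 12 probes 7 were higher and 5 lower, against 41.3% higher and 46.4% lower among all tested probes (87.7% called, and 87.5% of those well above background on all 6 arrays). A change of more than 1 on the log2 scale was seen in 8 of the 9 genes and in 52.8% of all tested genes. Bmp2, Bmp6 and Bmp7 reached the test only through the group in which they are bright and so had to differ, while the other 6 genes stood well above background on every array. The median change of the 9 genes was log2 −0.47, also with Bmp6 and Bmp7 set to their bounds, and that of all tested genes was −0.15.

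**Figure D1:**
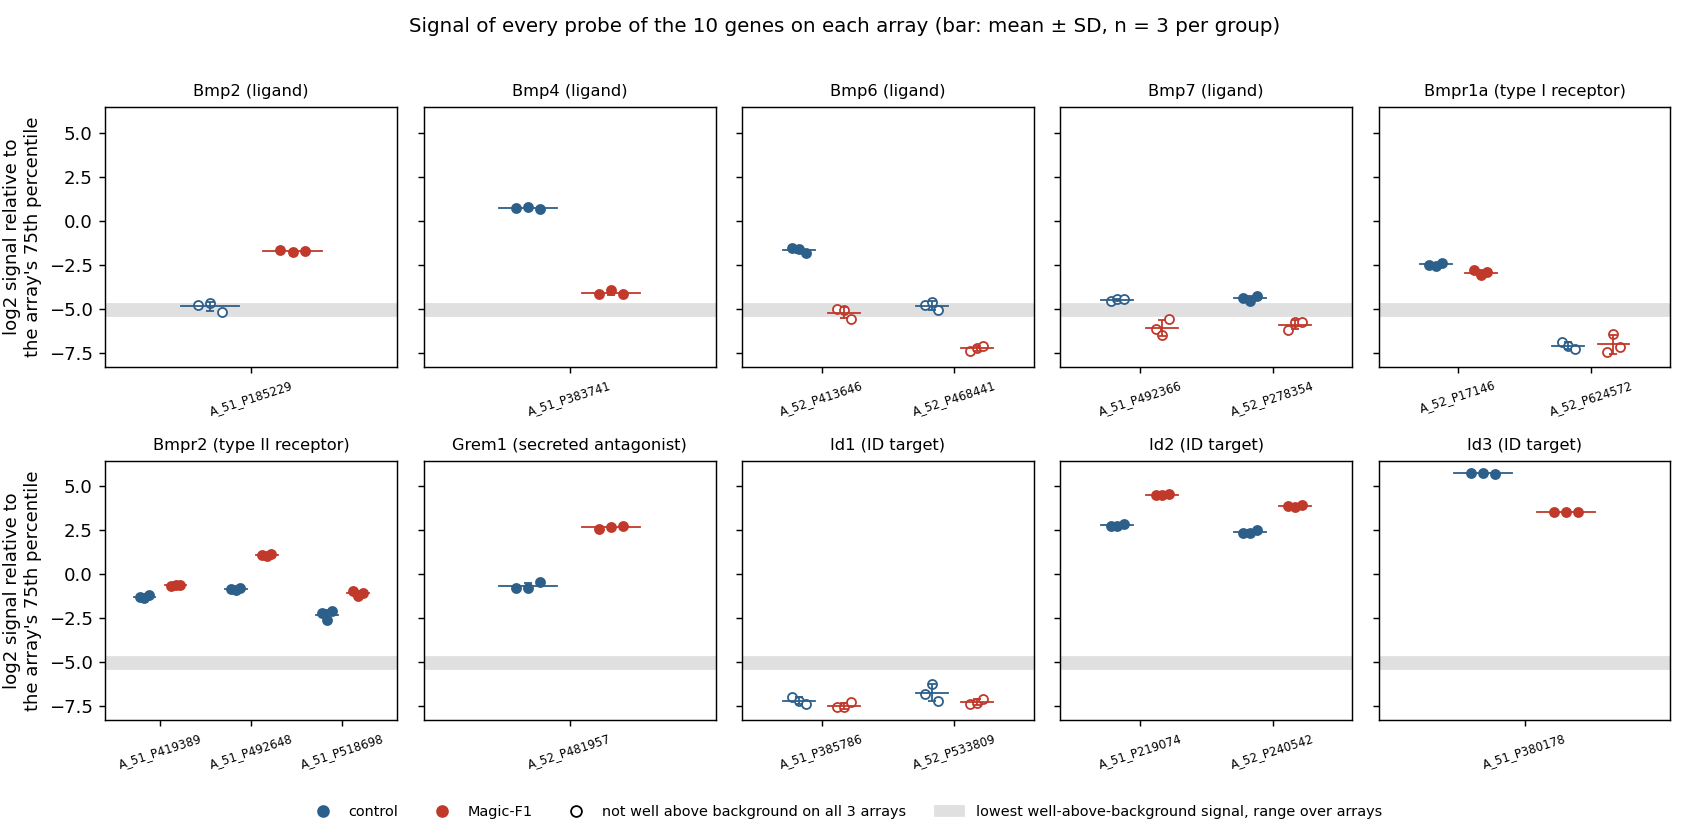
Log2 signal relative to the array's 75th percentile (vertical axis) of all 17 probes of the 10 genes, with 1 point per array, horizontal bars at the group mean and error bars of 1 SD (n = 3 per group). Open points belong to a probe that was not well above background on all 3 arrays of that group, and the grey band spans the lowest signal called well above background on each array. Both Id1 probes lie below the band in both groups, and Id2 and Id3 lie far above it with their groups in opposite order.

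Bmp4 showed the largest change of the 9 genes with the 75th percentile scaling, though not with normexp background, where Grem1 changed by 2.96 and Bmp4 by −2.94. This ligand signals in many embryonic and adult tissues and is among the BMPs known to keep muscle progenitors dividing. Its probe (A_51_P383741, mm9 chromosome 14, 47003802 to 47003861, minus strand) gave −4.17, −3.93 and −4.18 on Magic-F1 arrays 1, 2 and 3 and 0.70, 0.77 and 0.64 on control arrays 1, 2 and 3. All 3 Magic-F1 values lay far below the lowest control value. Bmp4 was 27.7-fold lower (log2 −4.79, SE 0.08, adjusted p = 6.73e-08), and 2.55% of tested genes changed more. The fall was −4.84 within slide 1, which held arrays 1 and 3 of each group, and −4.70 within slide 2, which held array 2 of each. Normexp background correction adds an offset and shrinks differences of dim spots.

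Bmp2, a ligand best known for inducing bone and cartilage, went the other way. Its probe (A_51_P185229, mm9 chromosome 2, 133386981 to 133387040, plus strand) gave −1.68, −1.78 and −1.73 on the Magic-F1 arrays and −4.80, −4.66 and −5.17 on the control arrays. The groups did not overlap, but of the control arrays only array 2 had the probe well above background. Bmp2 was 8.83-fold higher (log2 3.14, SE 0.13, adjusted p = 1.87e-06). The size rests on control signals at the edge of detection, and with normexp background it was log2 1.02. The change was 3.27 within slide 1 and 2.88 within slide 2.

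Bmp2, Bmp4 and a second Bmp7 probe were each printed 10 times on every array, which shows the error of single spots. For Bmp4 the SD between spots of 1 array was 0.04 to 0.08 on control arrays and 0.13 on each Magic-F1 array. For Bmp2 it was 0.06 to 0.07 on Magic-F1 arrays and 0.14 to 0.40 on control arrays, where 5 of 10, 9 of 9 and 4 of 9 usable spots were well above background. The brightest control spot of Bmp2 (log2 −4.33) lay below the dimmest Magic-F1 spot (log2 −1.87), and the Bmp4 spots were as clearly separated in the opposite order. The 10-spot Bmp7 probe had 0 spots well above background on the Magic-F1 arrays and 4 of 9, 8 of 10 and 9 of 10 on the control arrays.

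**Figure D2:**
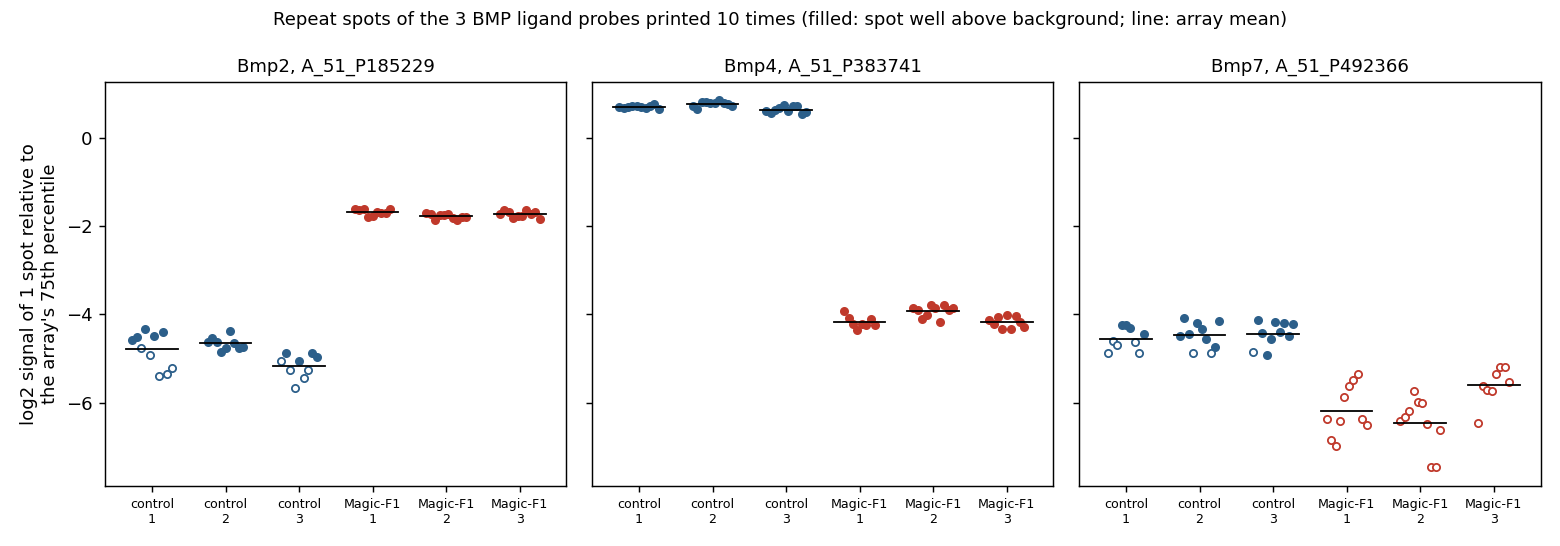
Log2 signal of each usable spot (vertical axis) of the 3 ligand probes printed 10 times, by array, with filled points for spots well above background and a line at the mean of the array. Bmp2 spots are higher and tight on the Magic-F1 arrays, Bmp4 spots are higher and tight on the control arrays, and Bmp7 spots scatter near the detection limit with SDs of 0.25 to 0.58.

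Bmp6, the ligand that also informs the liver of iron stores, was measured by 2 probes. The brighter (A_52_P413646, mm9 chromosome 13, 38591479 to 38591538, plus strand) gave −5.00, −5.09 and −5.59 on the Magic-F1 arrays and −1.58, −1.60 and −1.84 on the control arrays. All control arrays had it well above background and no Magic-F1 array did. Bmp6 was therefore at least 10.55-fold lower (fitted log2 −3.55, SE 0.17, adjusted p = 3.25e-06). For the dim group this bound takes the higher of the probe's own signal and the lowest signal well above background on each array. With normexp background the change was −1.29. The second probe (A_52_P468441) was well above background on 1 control array alone and was not tested, with a difference of −2.42 in the same direction.

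Bmp7, a ligand of kidney and eye development that also acts on brown fat, was dim in both groups. Its tested probe (A_52_P278354, mm9 chromosome 2, 172695203 to 172695262, minus strand) gave −6.20, −5.77 and −5.78 on the Magic-F1 arrays and −4.41, −4.54 and −4.26 on the control arrays. The Magic-F1 values were all lower and none was well above background. Bmp7 was at least 1.85-fold lower (fitted log2 −1.52, SE 0.14, adjusted p = 8.03e-05), and the change was −0.47 with normexp background. The 10-spot probe (A_51_P492366), which was not tested, differed by −1.60.

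The receptors moved in opposite directions. Bmpr2 encodes the type II receptor kinase that activates the type I receptor. Its brightest probe (A_51_P492648, mm9 chromosome 1, 59931925 to 59931984, plus strand) gave 1.06, 1.03 and 1.12 on the Magic-F1 arrays and −0.83, −0.90 and −0.80 on the control arrays. The replicates lay close together and the groups were well apart. Bmpr2 was 3.77-fold higher (log2 1.91, SE 0.05, adjusted p = 2.89e-07). The other Bmpr2 probes rose less, by 0.66 (SE 0.06, A_51_P419389, 59927276 to 59927335) and 1.23 (SE 0.15, A_51_P518698, 59934262 to 59934321). All 3 probes lie on the plus strand of chromosome 1 and were well above background on all 6 arrays, so they give the same direction with sizes between 1.58-fold and 3.77-fold. The mean of the 3 probes changed by 1.27.

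Bmpr1a encodes a type I receptor for BMP2 and BMP4. Its tested probe (A_52_P17146, mm9 chromosome 14, 35224339 to 35224398, minus strand) gave −2.83, −3.10 and −2.94 on the Magic-F1 arrays and −2.50, −2.57 and −2.40 on the control arrays. The groups did not overlap, but the gap between the nearest arrays was small. Bmpr1a was 1.38-fold lower (log2 −0.47, SE 0.09, adjusted p = 0.00225), and 76.4% of tested genes changed more. The call depended on the scaling: with the arrays scaled to spiked-in transcripts the change was −0.0063 (adjusted p = 0.958). In the authors' deposited log2 table it was 1.07 (adjusted p = 0.464), since the control column numbered 1 holds −7.21 for this probe there. With only the columns numbered 2 and 3, which match the scanner files, it was −0.54 (adjusted p = 0.0102). The second Bmpr1a probe (A_52_P624572) was not well above background on any array.

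Grem1 encodes gremlin, a secreted protein that binds BMP2, BMP4 and BMP7 and keeps them from their receptors. Its probe (A_52_P481957, mm9 chromosome 2, 113589227 to 113589286, minus strand) gave 2.55, 2.69 and 2.71 on the Magic-F1 arrays and −0.82, −0.80 and −0.45 on the control arrays. All Magic-F1 values lay well above all control values, of which that of array 3 was the highest. Grem1 was 10.1-fold higher (log2 3.34, SE 0.11, adjusted p = 7.24e-07), and 8.42% of tested genes changed more. It was the only one of the 4 risers whose probe was well above background on all arrays and changed by more than 3.

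The ID targets differed among themselves. Id2 encodes an inhibitor that pairs with bHLH factors in many progenitor cells. Its brightest probe (A_51_P219074, mm9 chromosome 12, minus strand) gave 4.47, 4.49 and 4.56 on the Magic-F1 arrays and 2.73, 2.72 and 2.86 on the control arrays. The replicates were tight and the groups did not overlap. Id2 was 3.33-fold higher (log2 1.73, SE 0.06, adjusted p = 7.08e-07), and its second probe (A_52_P240542, 25778904 to 25778963) was 2.79-fold higher (log2 1.48, SE 0.07). The brightest probe is 60 bases long but is placed over 348 bases, 25780183 to 25780530, so the genome interrupts its sequence.

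Id3, the inhibitor most often used with Id1 as a readout of BMP signals, went down. Its probe (A_51_P380178, mm9 chromosome 4, 135700075 to 135700249, plus strand, 60 bases placed over 175) gave 3.51, 3.53 and 3.51 on the Magic-F1 arrays and 5.75, 5.75 and 5.70 on the control arrays. The SDs, 0.01 in Magic-F1 and 0.03 in control, were the smallest among the 9 genes, and the groups lay far apart. Id3 was 4.65-fold lower (log2 −2.22, SE 0.04, adjusted p = 8.43e-08). The change was −2.21 within slide 1 and −2.22 within slide 2.

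Id1, the third ID gene, was not measurable at this signal. Its probes (A_51_P385786 and A_52_P533809, mm9 chromosome 2, 152563036 to 152563095 and 152563046 to 152563105) share 50 bases and were not well above background on any of the 6 arrays. The first gave −7.57, −7.57 and −7.27 on the Magic-F1 arrays and −6.98, −7.19 and −7.38 on the control arrays. The second gave −7.37, −7.35 and −7.08 against −6.81, −6.22 and −7.20. The groups overlapped for both probes, so no change could be given for Id1.

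For 3 pairs of a gene that rose and a gene that fell, the difference of the 2 values was also read within each array, where scaling between arrays drops out. The pairs were chosen after the values were seen, so the differences are given as a description, with no test. The Id2 value minus the Id3 value averaged 0.99 ± 0.05 in Magic-F1 against −2.97 ± 0.10 in controls (mean ± SD, n = 3 per group), a difference of 3.95. The Bmp2 value minus the Bmp4 value was 2.36 ± 0.19 against −5.58 ± 0.20, a difference of 7.94, though only 1 of the 3 control arrays had Bmp2 well above background. For Bmpr2 minus Bmpr1a the values were 4.03 ± 0.12 and 1.65 ± 0.04, a difference of 2.38.

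The sequences before the starts of genes that moved in opposite directions are shown for reference: the targets Id2 and Id3, the ligand gene Bmp4 and the antagonist gene Grem1. RefSeq promoter windows on GRCm38.p6 were found for 7 of the 10 genes, the other genes being Bmp2, Bmp7 and Id1. Each run is the 250 bases before the start, 5′ to 3′ on the gene's strand, at chr12:25096093-25096342 (minus strand) for Id2, chr4:136143572-136143821 (plus strand) for Id3, chr14:46390670-46390919 (minus strand) for Bmp4 and chr2:113758649-113758898 (minus strand) for Grem1. Capitals mark matches to GGCGCC, a GC-rich element of BMP-activated SMADs, to GTCTG and to CANNTG, the E-box bound by bHLH factors. GTCTG is the SMAD half-site GTCT followed by a G, and GTCT without that G was not marked.
Id2: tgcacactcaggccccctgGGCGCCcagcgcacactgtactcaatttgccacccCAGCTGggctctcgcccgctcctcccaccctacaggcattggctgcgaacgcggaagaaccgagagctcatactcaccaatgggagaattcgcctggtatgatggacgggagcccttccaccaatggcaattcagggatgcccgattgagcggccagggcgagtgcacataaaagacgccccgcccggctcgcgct
Id3: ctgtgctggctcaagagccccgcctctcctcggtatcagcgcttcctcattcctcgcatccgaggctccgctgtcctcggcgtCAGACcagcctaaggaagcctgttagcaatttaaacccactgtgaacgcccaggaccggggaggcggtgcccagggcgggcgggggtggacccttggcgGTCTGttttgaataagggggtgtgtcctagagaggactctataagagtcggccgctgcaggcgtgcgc
Bmp4: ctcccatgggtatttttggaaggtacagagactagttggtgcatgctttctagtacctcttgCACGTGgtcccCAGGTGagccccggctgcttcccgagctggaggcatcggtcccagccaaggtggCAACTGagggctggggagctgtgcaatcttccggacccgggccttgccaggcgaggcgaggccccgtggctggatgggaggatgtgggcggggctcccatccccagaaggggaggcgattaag
Grem1: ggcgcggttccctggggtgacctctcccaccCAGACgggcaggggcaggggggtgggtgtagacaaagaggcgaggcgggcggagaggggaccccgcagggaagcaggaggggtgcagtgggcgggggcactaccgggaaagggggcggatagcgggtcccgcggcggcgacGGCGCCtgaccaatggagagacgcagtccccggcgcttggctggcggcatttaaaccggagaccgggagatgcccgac
Both strands were searched, GTCTAGAC, the SMAD palindrome, was searched as well, and the matches shown do not overlap. Counting the base just before the start as −1, the Id2 window held GGCGCC with its first base at −231 and an E-box at −196, and the Id3 window held only GTCTG or its reverse complement, at −167 and −68. The Bmp4 window held 3 E-boxes, at −188, −177 and −123, and the Grem1 window held GGCGCC at −78 and GTCTG's reverse complement at −219. GGCGCC also occurred in the windows of the receptor genes Bmpr1a, at −198, and Bmpr2, at −105. The Bmp6 window held E-boxes at −127 and −51 and GTCTG's reverse complement at −119. GTCTAGAC was in none of the 7. Of all 32851 windows of this length, 9.59% held GGCGCC, 42.2% GTCTG, 66.2% an E-box and 0.167% GTCTAGAC. The 7 windows of these genes held 62.8% to 78.8% G or C bases, and these shares over all windows were not matched for that content. GGCGCC stood before genes that rose (Id2, Bmpr2, Grem1) and before one that fell (Bmpr1a), and a match is a description of letters, not a binding site.

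The rest of the pathway was read from 88 further genes, of which 60 were tested. Of these, 32 were lower, 19 higher and 9 not called, with a median change of −0.28 (all tested genes −0.15). Over all tested genes 88.3% were called, 47.7% lower and 40.6% higher, and the counts of the lists below are to be read against these shares. The medians of the 6 lists below are the same with dim genes set to their bounds. Beyond the 4 of each group with the largest changes, genes are named after their values were seen. Of 11 further ligand genes 4 were tested. Gdf9, best known from oocytes, was 6.64-fold higher (log2 2.73, SE 0.16), and Bmp3, a ligand that dampens BMP signals, was 2.53-fold higher (log2 1.34, SE 0.12). Gdf5, a ligand of joint formation, was 1.71-fold higher (log2 0.78, SE 0.07), while Bmp5 was at least 3.38-fold lower. With normexp background 2 of the 3 risers still passed, and the changes were 0.80 for Gdf9, 0.11 for Bmp3 and −0.68 for Bmp5. Gdf9, Bmp3 and Bmp5 passed the filter on dim probes through 1 group only.

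Of 9 tested receptors and co-receptors, 3 were higher, 5 lower and 1 not called (median −0.16), with 6 higher and 2 lower under spike-in scaling. Rgmb, a membrane-anchored BMP co-receptor, was 9.27-fold higher (log2 3.21, SE 0.05), but another of its probes changed by −0.43. Hjv, the co-receptor hemojuvelin of muscle and liver, was 5.04-fold lower (log2 −2.33, SE 0.10). Bambi, a kinase-less receptor that blocks signalling, was 3.47-fold lower (log2 −1.79, SE 0.06), and Acvr2b, a type II receptor, was 2.60-fold higher (log2 1.38, SE 0.10, and 0.48 with normexp background). Acvrl1 was higher as well, and Neo1, Eng and Rgma were lower by less than 0.5, Neo1 with another probe at 0.81. Acvr1, the other broadly used BMP type I receptor, changed by 0.02 (SE 0.07, adjusted p = 0.792).

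Grem1 was higher, and most other extracellular antagonists and binding proteins were not. Of 15 tested, 9 were lower, 3 higher and 3 not called (median −0.60), with 5 lower and 5 higher under spike-in scaling. Sostdc1, which binds BMPs and WNT co-receptors, was at least 10.4-fold lower. Fst (follistatin), which binds activins and BMPs and promotes muscle growth, was 11.8-fold lower (log2 −3.56, SE 0.11), and Fstl1 was 3.28-fold lower (log2 −1.72, SE 0.06). With normexp background Sostdc1 changed by −1.32 and Fst by −2.33. Sostdc1 passed the filter on dim probes through the control group only and so had to differ. Kcp, a protein that enhances BMP binding to its receptor, was 3.33-fold higher (log2 1.73, SE 0.10). Noggin (Nog) changed by −0.52 and chordin (Chrd) by −0.61, both called lower, and Nbl1 and Twsg1 were higher, Twsg1 with another probe at −2.44. Crim1 (log2 0.05, adjusted p = 0.619) and Sost (log2 0.07, adjusted p = 0.774) did not pass.

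**Figure D3:**
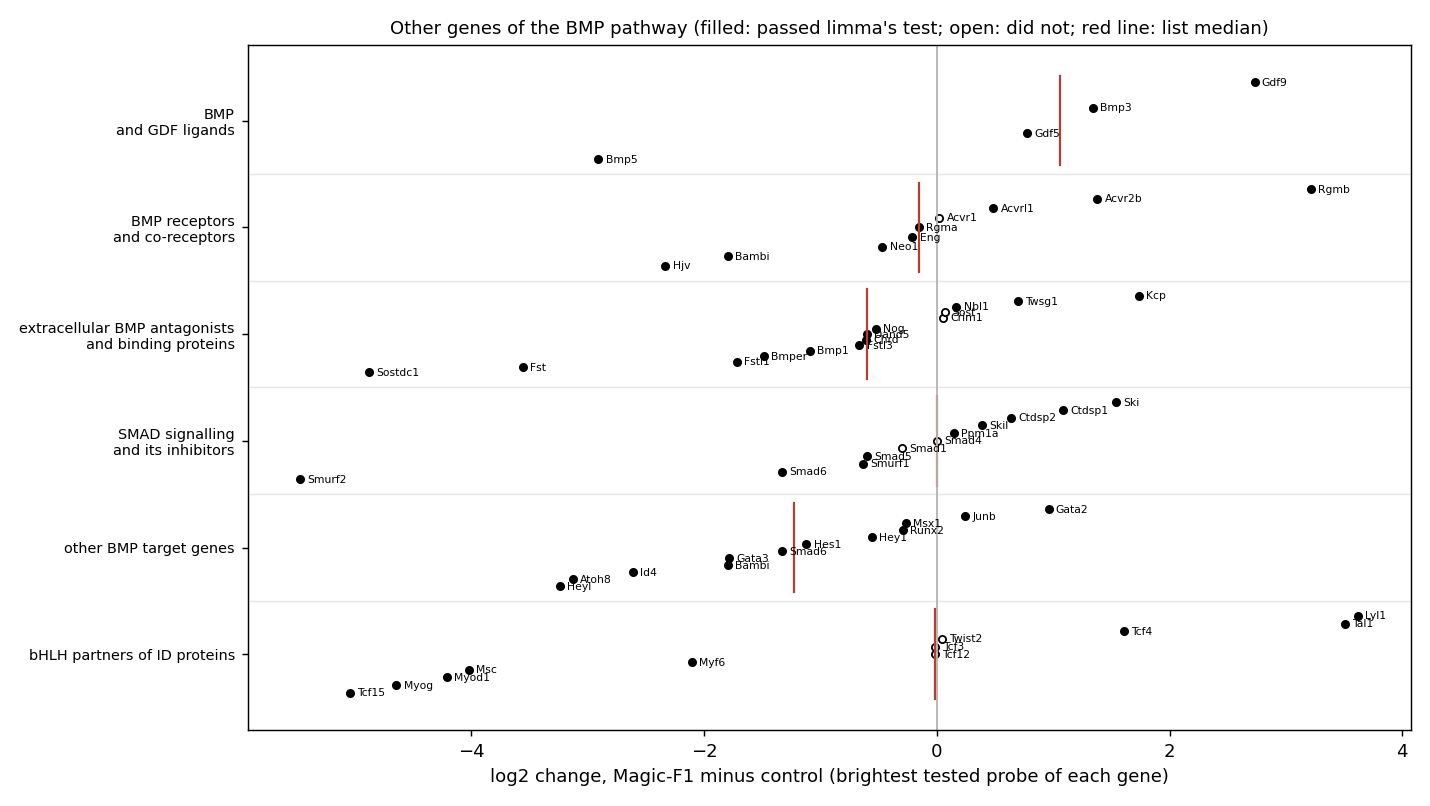
Log2 change, Magic-F1 minus control (horizontal axis), of the brightest tested probe of the further pathway genes, by list and with 1 gene left out of the drawing, with filled points for genes that passed limma's test, open points for those that did not and a red line at the list median. Medians range from −1.22 for other BMP target genes to 1.06 for the 4 tested ligands, and Smurf2 is the lowest point at −5.47. The ligand median was 0.22 with normexp background, and Gdf9, Bmp3 and Bmp5 passed the filter on dim probes through 1 group only.

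Genes of the SMAD step were divided, with 5 of 11 tested genes higher, 4 lower and 2 not called (median 0.00). Where all tested probes of a gene were averaged, 3 were higher and 7 lower, with a median of −0.51. Smurf2, a ubiquitin ligase that removes SMADs and receptors, was 44.3-fold lower (log2 −5.47, SE 0.21), and 2 of 3 Magic-F1 arrays had it well above background. It passed the filter on dim probes through the control group only, and with normexp background its change was −3.00. Smad6, the inhibitory SMAD, was 2.51-fold lower (log2 −1.33, SE 0.11). Ski, a repressor of SMAD complexes, was 2.91-fold higher (log2 1.54, SE 0.04), and the phosphatase gene Ctdsp1 was 2.13-fold higher (log2 1.09, SE 0.05). Ctdsp2, Skil and Ppm1a were higher too, but other probes of each went the other way, at −1.33 and −1.20 for Ctdsp2, −1.40 for Skil and −0.10 and −0.07 for Ppm1a. Smurf1 was lower. The signalling SMAD gene Smad5 fell by 0.60, whereas Smad1 changed by −0.30 (SE 0.12, adjusted p = 0.0567) and Smad4 by 0.00 (SE 0.05, adjusted p = 0.957).

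Among 12 other tested target genes of BMP signals, 10 were lower and 2 higher (median −1.22), where 47.7% of all tested genes were lower and 40.6% higher. Under spike-in scaling 7 were lower and 2 higher, with a median of −0.76. All 12 stood well above background on every control array, and 11 did on every Magic-F1 array. The targets with the largest changes were lower. Heyl was 9.45-fold lower (log2 −3.24, SE 0.07), and Atoh8 was 8.75-fold lower (log2 −3.13, SE 0.09). Id4, the remaining ID family member, was 6.11-fold lower (log2 −2.61, SE 0.06), with its other probe at −1.50. With normexp background Heyl changed by −2.32 and Atoh8 by −2.53. Gata2 and Junb, a blood lineage factor and an immediate early factor, were the 2 that rose. Bambi and Smad6 are feedback inhibitors and stand both in this list and in those above.

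Of 11 tested bHLH genes whose products pair with ID proteins or share their partners, 5 were lower, 3 higher and 3 not called (median −0.02), with 6 higher and 5 lower under spike-in scaling. The 5 that were lower include the myogenic regulators Myog, 25.01-fold lower (log2 −4.64, SE 0.05), Myod1, 18.5-fold lower, and Myf6, together with Tcf15, at least 8.78-fold lower, and Msc, at least 13.9-fold lower. With normexp background Tcf15 changed by −1.35 and Msc by −1.48. Both passed the filter on dim probes through the control group only and so had to differ. The 3 that were higher were Lyl1 (log2 3.62, SE 0.05) and Tal1 (log2 3.51, SE 0.08), both blood cell factors, and Tcf4 (log2 1.61, SE 0.06), an E protein. The E protein genes Tcf3 (log2 −0.01, SE 0.06, adjusted p = 0.860) and Tcf12 (log2 −0.02, SE 0.08, adjusted p = 0.852) did not pass, and the other probes of Tcf12 changed by −1.03 and 1.05. Twist2 changed by 0.04 (SE 0.04, adjusted p = 0.371).

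The direction of the 9 genes was largely kept under other processing. Over 18 other settings, 8 of the 9 genes kept direction and call wherever they were tested, and Bmpr1a was the exception given above. Bmp2, Bmp6 and Bmp7 reached the test through 1 group only and had to differ, so their kept calls add no support. Scaling to spiked-in transcripts moved the median of all tested genes from −0.15 to 0.32 and the share of called probes that were higher from 47.1% to 60.8%. Both scalings subtract 1 constant per array, so all genes shift alike and a change relative to that median is the same under both by construction. These relative changes were 1.88 for Id2, −2.07 for Id3, 3.29 for Bmp2, −4.65 for Bmp4, 3.48 for Grem1 and −0.32 for Bmpr1a.

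**Figure D4:**
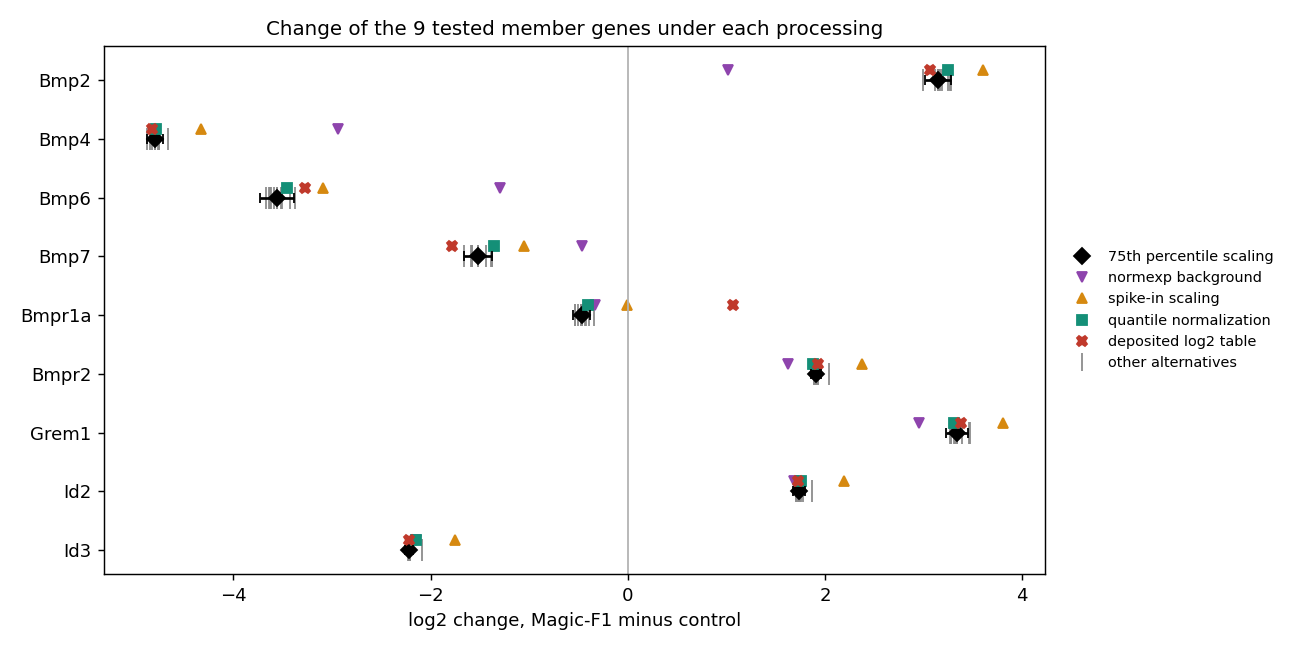
Log2 change, Magic-F1 minus control (horizontal axis), of the 9 tested genes, with a black diamond and an error bar of 1 SE for the 75th percentile scaling and other symbols for each alternative. Normexp background shrinks Bmp2, Bmp4, Bmp6 and Bmp7 most, and Bmpr1a is the gene whose values lie on both sides of 0, at −0.47 with the 75th percentile scaling, −0.0063 with spike-in scaling and 1.07 in the deposited table.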

How the data were processed

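Cy3-labelled RNA of 3 Magic-F1 and 3 control samples was measured on 6 Agilent arrays, per the labels. Agilent Feature Extraction 10.5.1.1, per the file headers, gave each spot a background-subtracted intensity, which the authors deposited with no scaling across arrays. A table of log2 values that the authors deposited as well equals the log2 processed intensity of the arrays numbered 2 and 3, and its columns numbered 1 hold other values on the same scale. How those columns were made is not stated in these sources. Its column medians are 3.53, 3.50 and 3.59 for Magic-F1 and 3.32, 3.35 and 3.40 for control.

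From the log2 processed signal of a spot the 75th percentile of its array (control spots left out) was subtracted. Spots flagged as outliers were left out and spots of a probe averaged. Probes well above background on all 3 arrays of a group were tested with limma 3.58.1 (lmFit, eBayes, two-sided, Benjamini-Hochberg at 0.05) in R 4.3.3, and the script was tested on simulated data. The tested probe with the highest mean stands for a gene. Where no array of a group was well above background, the fold is a lower bound (at least N-fold), against the higher of the probe's own signal and the lowest signal well above background on each array. Symbols of 25097 probes were matched through RefSeq accessions (GRCm38.p6, for names), and 16077 probes kept the name in the files. Probe coordinates are the files' (mm9), with no exon annotation. The genes and gene lists were chosen with earlier results of these data known. The text names the 10 genes with all probes, up to 4 called genes with the largest change per pathway list, 5 genes for the label check, the counts of each marker list and other genes chosen after their values were seen. Alternatives covered background, scaling, filters, variance model, slide, replicate number, the deposited table, probe choice and leaving out each array. The values of 1 gene in the antagonist list are not reported here, and it stays in the counts.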

Additional observations from a re-analysis of the deposited data

How the results depend on the processing

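The 9 calls kept direction and threshold under normexp background, quantile and median scaling, other filters, a variance trend, slide as a block, slide 1 alone and leaving out each array, wherever a gene was tested. Bmpr1a was the exception, with −0.0063 under spike-in scaling (adjusted p = 0.958) and 1.07 in the deposited table (adjusted p = 0.464), where its control column numbered 1 differs. The kept calls of Bmp2, Bmp6 and Bmp7 add no support, since the filter on dim probes let them in through 1 group only. With only probes above background on all 6 arrays, which tests fewer genes, 3 of the 9 genes were lower. Counts then became 1 higher and 0 lower for ligands and 3 lower for bHLH genes. Spike-in scaling gave 6 higher and 2 lower for receptors, 5 higher and 5 lower for antagonists and 6 higher for bHLH genes. Lower receptors numbered 3 with median scaling, within slide 1 and in the deposited table with columns 2 and 3 only. That last setting, chosen after seeing the data, gave 1 higher for other targets. Averaging all tested probes gave 3 higher and 7 lower for SMAD genes. The cause of the moved counts was otherwise not tested.

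Whether replicate numbers pair the samples is not known. Deviations of same-numbered arrays correlated at −0.003, 0.108 and 0.069. Magic-F1 arrays 2 and 3 correlated best with the same-numbered control array, and Magic-F1 array 1 with control array 3 (0.048). Correlations this small, with 3 arrays per group, cannot decide it. With the replicate number as a block, all 9 genes and 12 probes were called as before, with 18541 against 18588 probes called in all. Leaving out each array gave 9 genes called each time and changes of −0.53 to −0.40 for Bmpr1a. Signals near background limit Bmp2, Bmp6, Bmp7 and Id1.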
